A study of Homo sapiens with 18 samples.

Results

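The G1 cyclins CCND1, CCND3, CCNE1 and CCNE2 and the kinases CDK2, CDK4 and CDK6 were followed in U251 cells, an established human glioblastoma line, after silencing of MPS1, the spindle checkpoint kinase encoded by TTK. The genes were taken by symbol from the annotation of the arrays. All 7 were among the 7828 genes left after the filter on low signal, and together they had 11 of the 19064 probe sets that name a single gene. An siRNA to MPS1 (siMPS1), an siRNA meant to hit no gene (siNeg) and no transfection at all (Control) were compared in cells collected at 6, 24 and 48 h after transfection, with 2 arrays in each of the 9 groups and 18 arrays in all. The siRNA dose was 2 pmol, and U251 was the only line studied. Values below are log2 of the deposited signal plus 3. Genes counted as called had a Benjamini-Hochberg adjusted p below 0.05 in limma, which fits a linear model to every gene at once. The labels do not tell whether both arrays of a group are independent cultures, so the p-values speak of array-to-array spread, which may be technical.

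D-type cyclins are made in answer to growth signals and bind CDK4 and CDK6. The resulting kinases phosphorylate the retinoblastoma protein, which then releases E2F transcription factors. E2F factors drive the E-type cyclins, whose partner CDK2 completes that phosphorylation and starts DNA replication, and CDK4 and CDK6 with their D cyclins are often amplified or freed of their inhibitors in glioblastoma.

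RefSeq promoter sequences (GRCh38.p14) were at hand for 4 of the 7 genes, CCND3, CCNE1, CDK4 and CDK6, in 7 windows. The 250 bases upstream of the start of CCNE1 (chr19:29811741-29811990, plus strand) and of CDK4 (chr12:57752311-57752560, minus strand) are shown, because CCNE1 is a textbook E2F target that was lower in siMPS1 cells below, and CDK4 is a textbook MYC target that was higher at 48 h than at 24 h in each treatment. Capitals mark TCCCGC, the core of the E2F motif, on either strand in CCNE1, and CACGTG, the E-box that MYC binds, in CDK4.
CCNE1: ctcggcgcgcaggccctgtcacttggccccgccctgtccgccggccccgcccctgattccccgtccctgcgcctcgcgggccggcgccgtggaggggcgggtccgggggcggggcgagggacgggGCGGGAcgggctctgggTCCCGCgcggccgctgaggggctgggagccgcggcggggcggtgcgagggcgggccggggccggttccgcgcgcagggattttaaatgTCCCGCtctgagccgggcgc
CDK4: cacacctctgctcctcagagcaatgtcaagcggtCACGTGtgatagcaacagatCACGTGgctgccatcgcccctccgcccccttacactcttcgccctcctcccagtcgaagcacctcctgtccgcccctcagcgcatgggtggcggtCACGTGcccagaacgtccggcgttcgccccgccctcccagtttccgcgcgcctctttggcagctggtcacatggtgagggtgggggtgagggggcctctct

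The CCNE1 window held 3 matches to TCCCGC, beginning 125, 108 and 20 bases before the start, and the first of them overlapped a GGGCGG match that began 127 bases before it. One of the 3 CCND3 windows also held a TCCCGC match, beginning 125 bases before the start, and no CDK4 or CDK6 window did. Of 35116 promoter windows of this length, 23.5% held TCCCGC. The CDK4 window held 3 CACGTG matches, beginning 216, 196 and 101 bases before the start, against 6.34% of windows with at least one. No match to the longer E2F motifs TTTCCCGC and TTTGGCGC lay in any of the 7 windows, and 1.39% and 0.55% of all windows held them. A match is a description of the letters and not a bound site.

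TTK, the silenced gene, read 4.07 and 4.27 in siMPS1 cells, 5.48 and 5.71 in siNeg cells and 5.34 and 5.72 in Control cells at 6 h. At 24 h it read 5.23 and 4.74 in siMPS1, 6.86 and 6.89 in siNeg and 7.13 and 6.81 in Control. At 48 h the values were 4.78 and 4.26 in siMPS1, 6.72 and 6.92 in siNeg and 6.57 and 6.91 in Control. The siMPS1 arrays lay below all other arrays of their time.

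Replicate correlations across genes ran from 0.983 to 0.990. The median deposited signal of the arrays ran from 4.30 to 4.56, and at 6 h it was 4.52 and 4.56 in siMPS1, 4.47 and 4.51 in siNeg and 4.33 and 4.30 in Control. Centring each array on its median moved the median log2 fold change of all genes at 6 h from 0.04 to -0.16 for siMPS1 minus Control and from 0.02 to -0.13 for siNeg minus Control. Of 12 glial and glioblastoma markers, VIM, NES, CD44, SOX2, SOX9, FABP7, SLC1A3 and TNC lay above the array median on all 18 arrays, GFAP did on 3, and S100B, AQP4 and CHI3L1 did on 0. Of the 9 that passed the filter, 1 was called higher and 3 lower in siMPS1 than in siNeg at 48 h, TNC at 0.30, NES at -0.41, SOX2 at -0.41 and FABP7 at -0.76, with adjusted p of 0.00152, 0.000959, 0.029 and 7.4e-06. Of 4 neuronal markers past the filter, NEFL alone was called at 48 h, at -0.34 (adjusted p = 0.000207), and of 3 epithelial ones CLDN4 alone, at 0.64 (adjusted p = 0.00095). In this comparison 15.7% of all genes were called higher and 13.5% lower. Summed signal of 7 epithelial markers ran from 1155 to 1219 in siMPS1, from 1006 to 1121 in siNeg and from 1001 to 1060 in Control at 48 h, with EPCAM, CDH1 and KRT19 above the array median on 0 arrays. The part of these marker changes in the results was not tested. The 2 siMPS1 arrays of 48 h stood apart in RNA quality. Their log2 ratio of 3′ over 5′ signal in the ACTB control probe sets was 0.87 and 0.92, against 0.10 and 0.14 in siNeg and 0.16 and 0.24 in Control at 48 h, and the GAPDH ratio was 0.29 and 0.30 against 0.08 and 0.01 in siNeg and -0.03 and -0.03 in Control. Mean signal of the 18S rRNA probe sets was 11.08 and 11.18 in siMPS1 at 48 h. It was 9.45 and 9.50 in siNeg and 10.13 and 10.22 in Control at 48 h. At 24 h it was 10.31 and 10.42 in siMPS1, 11.16 and 11.15 in siNeg and 10.17 and 10.20 in Control, so there the siNeg arrays stood apart. The part of these differences in the results at 24 and 48 h was not tested.

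**Figure D1:**
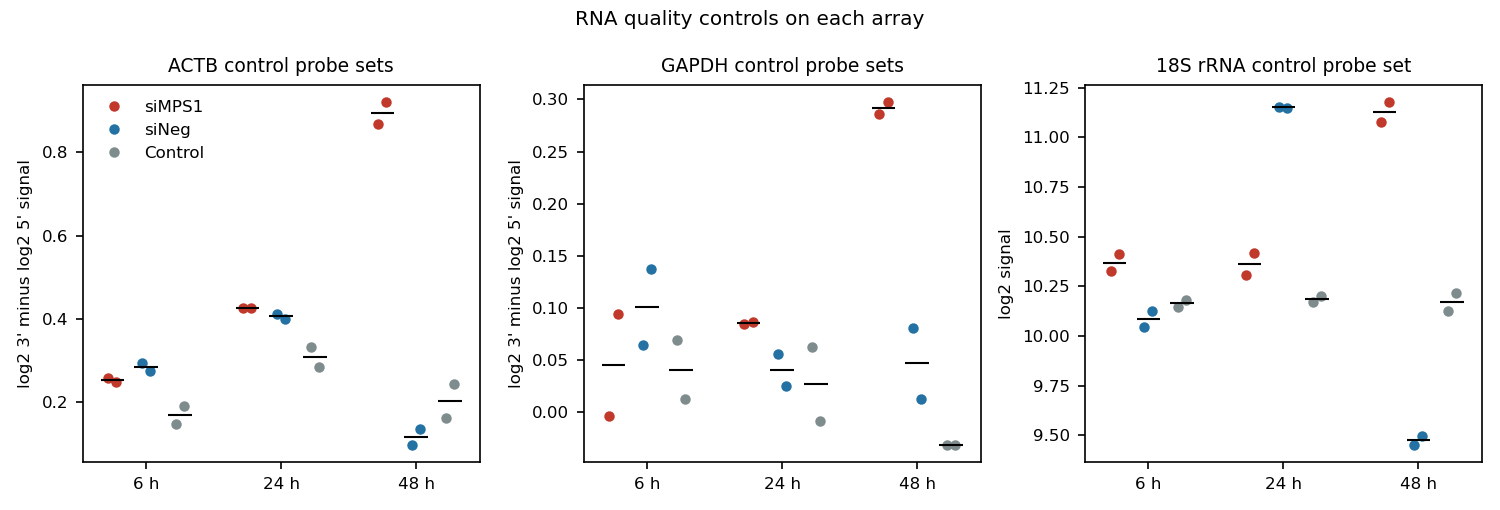
Log2 ratio of 3′ to 5′ signal of the ACTB and GAPDH control probe sets, and mean log2 signal of the 18S rRNA probe sets. Values are shown for each array by hours after transfection (points are arrays and bars are means of 2). The siMPS1 arrays of 48 h have the highest ACTB ratios, 0.87 and 0.92, and the siNeg arrays of 24 h have high 18S signals, 11.16 and 11.15.

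The cyclins moved apart in siMPS1 cells. CCNE2 fell at every time against both siNeg and Control, and CCNE1 fell at 24 and 48 h against siNeg. By its main probe set CCND1 rose at 48 h against siNeg and Control. Its rise at 6 h was called against both too, but was lost in some alternative fits and without any one of the 4 arrays compared. Against siNeg, 2 of the 7 genes were called at 6 h (CCND1 higher, CCNE2 lower), when 7.70% of all genes were called. At 24 h 4 were called (CCND3 higher, CCNE1, CCNE2 and CDK6 lower), against 10.9% of all genes. At 48 h 4 were called (CCND1 and CDK6 higher, CCNE1 and CCNE2 lower), against 29.2%. The median log2 fold change of the 7 genes was -0.11, 0.05 and -0.15 at 6, 24 and 48 h, and that of all genes was 0.01, 0.00 and 0.03. In RNA taken from a whole culture, fewer cells in the phase that carries a transcript and less of it per cell cannot be told apart.

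**Figure D2:**
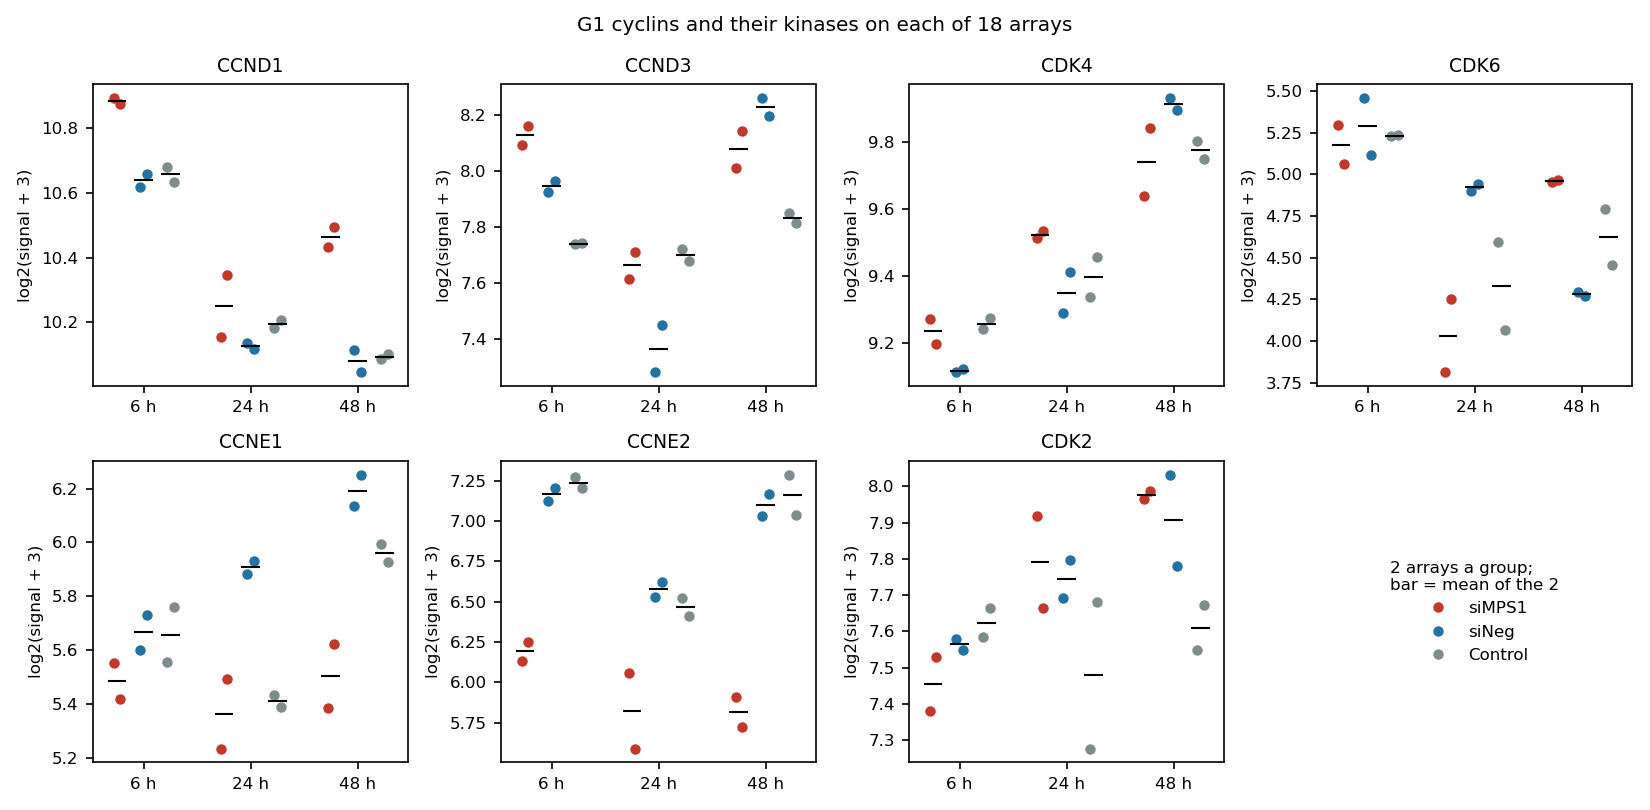
Log2 signal of the main probe set of each gene on every array, by hours after transfection, with siMPS1 to the left, siNeg in the middle and Control to the right of each time (points, arrays; bars, means of 2; the axes do not start at 0). The CCNE2 arrays of siMPS1 cells, from 5.59 to 6.25, lie below every siNeg and Control array of that gene, and the CCND1 arrays of all treatments are highest at 6 h.

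CCND1, cyclin D1, is the D cyclin that growth factors and Wnt signalling induce in most adherent cells. At 6 h its main probe set, 208712_at, read 10.89 and 10.87 in siMPS1, 10.62 and 10.66 in siNeg and 10.68 and 10.63 in Control. The 24 h values were 10.16 and 10.35 in siMPS1, 10.14 and 10.12 in siNeg and 10.18 and 10.21 in Control. At 48 h it read 10.43 and 10.49 in siMPS1, 10.11 and 10.05 in siNeg and 10.09 and 10.10 in Control. Both siMPS1 arrays lay above all siNeg and Control arrays at 6 and at 48 h, and they overlapped with Control at 24 h. Against siNeg the log2 fold change was 0.24 at 6 h (SE 0.06, limma adjusted p = 0.0225). It was 0.12 at 24 h, with an adjusted p of 0.214, and 0.38 at 48 h, with an adjusted p of 0.000123. Without siMPS1 replicate 1 the 24 h value was 0.22 and was called (adjusted p = 0.0387), and over all omissions it ran from 0.03 to 0.22. Against Control the 3 values were 0.23, 0.06 and 0.37, with adjusted p of 0.0186, 0.61 and 0.000239. The rise at 48 h came to 130% of the siNeg level and was called in every alternative fit and without any single array. The rise at 6 h was lost without any one of the 4 arrays compared (0.22 to 0.27, adjusted p from 0.0821 to 0.144), and with quantile normalization, the mean of both probe sets or no intensity trend. The 6 h rise against Control was likewise lost without any one of its 4 arrays (0.20 to 0.25, adjusted p from 0.0571 to 0.121), and with quantile normalization, median centring or no intensity trend (0.03 to 0.23).

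The dimmer probe set of CCND1, 208711_s_at, did not give the 6 h difference. It read 10.24 and 10.32 in siMPS1, 10.31 and 10.37 in siNeg and 10.01 and 10.17 in Control at 6 h. The differences from siNeg were -0.06, 0.02 and 0.19 at the 3 times, with p adjusted over all probe sets of 0.714, 0.924 and 0.0594. The 48 h value was called with quantile normalization or the replicate block (0.19 to 0.20, adjusted p from 0.0229 to 0.024) and without either Control 6 h array (adjusted p from 0.0488 to 0.0489). Against Control it was lower in siMPS1 at 24 h by a log2 difference of -0.25 (adjusted p = 0.0298), with 9.82 and 9.93 in siMPS1, 9.84 and 9.86 in siNeg and 10.11 and 10.14 in Control. At 48 h both siMPS1 arrays lay above the siNeg arrays, 9.76 and 9.80, and the Control arrays, 9.83 and 9.92.

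CCND3, cyclin D3, differed between siNeg and Control as well as between siMPS1 and siNeg, and its direction changed with time. At 6 h it read 8.09 and 8.16 in siMPS1, 7.93 and 7.97 in siNeg and 7.74 and 7.74 in Control. After 24 h it read 7.62 and 7.71 in siMPS1, 7.28 and 7.45 in siNeg and 7.72 and 7.68 in Control. The 48 h values were 8.01 and 8.14 in siMPS1, 8.26 and 8.20 in siNeg and 7.85 and 7.81 in Control. The 3 treatments did not overlap at 6 h or at 48 h, and their order differed, with siMPS1 highest at 6 h and siNeg highest at 48 h. At 24 h the siMPS1 and Control arrays overlapped and the siNeg arrays lay below both.

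Against siNeg, CCND3 rose by 0.30 at 24 h (SE 0.08, adjusted p = 0.0176), with 0.18 at 6 h and -0.15 at 48 h (adjusted p of 0.158 and 0.159). Without siNeg replicate 1 or siMPS1 replicate 2 the 24 h value was 0.22 to 0.25 and was no longer called (adjusted p from 0.145 to 0.207). Against Control it rose by 0.39 at 6 h (adjusted p = 0.0035) and by 0.25 at 48 h (adjusted p = 0.0237), with -0.04 at 24 h (adjusted p = 0.819). The 6 h value was 0.19 and not called with median centring (adjusted p = 0.0727). The 48 h value against Control lost its call without either Control array or siMPS1 replicate 2 (0.18 to 0.27, adjusted p from 0.0663 to 0.2). CCND3 was also the one of the 7 genes that was called between siNeg and Control, at -0.34 at 24 h (adjusted p = 0.0477) and then 0.40 at 48 h (adjusted p = 0.00237). Of all genes, 0.933% were called between siNeg and Control at 24 h and 12.9% at 48 h, and at 6 h 3.82% were. At 6 h 0 of the 7 were called in limma, and 1, CCND3, had an unadjusted p under 0.05. The 24 h call was lost without any one of 12 arrays (-0.42 to -0.25, adjusted p from 0.0544 to 0.294).

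CDK4, the catalytic partner of the D cyclins, passed no test against siNeg or Control in the fit used here. It read 9.27 and 9.20 in siMPS1, 9.11 and 9.12 in siNeg and 9.24 and 9.27 in Control at 6 h. At 24 h it read 9.51 and 9.53 in siMPS1, 9.29 and 9.41 in siNeg and 9.34 and 9.46 in Control. After 48 h it read 9.64 and 9.84 in siMPS1, 9.93 and 9.89 in siNeg and 9.80 and 9.75 in Control. The siMPS1 arrays lay above the siNeg arrays at 6 and 24 h and below them at 48 h. The log2 difference from siNeg was 0.12 (95% interval -0.03 to 0.26), 0.17 (0.03 to 0.32) and -0.17 (-0.32 to -0.03), with adjusted p of 0.331, 0.125 and 0.0694. Without siMPS1 replicate 2 the 48 h value was called at -0.28 (adjusted p = 0.015), and with median centring CDK4 was called at -0.20 against siNeg at 48 h and at -0.22 against Control at 6 h. Between times, the response as a difference from siNeg was called for 4 of the 7 genes from 24 to 48 h, for 2 from 6 to 48 h and for 0 from 6 to 24 h, when 15.8%, 20.2% and 3.69% of all genes were. From 6 to 24 h CDK6 alone had an unadjusted p under 0.05. For CDK4 the difference changed between 24 and 48 h, by -0.35 (SE 0.10, adjusted p = 0.0223), and between 6 and 48 h, by -0.29 (adjusted p = 0.044). These calls were lost without any one of 4 and of 9 arrays, with values from -0.34 to -0.25 and from -0.33 to -0.19.

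CDK6, the other partner of the D cyclins, had 1 probe set, which was dim and lay above the array median on 11 of 18 arrays. At 6 h it read 5.30 and 5.06 in siMPS1, 5.46 and 5.12 in siNeg and 5.23 and 5.23 in Control. The 24 h values were 3.81 and 4.25 in siMPS1, 4.90 and 4.94 in siNeg and 4.60 and 4.07 in Control. At 48 h it read 4.96 and 4.97 in siMPS1, 4.29 and 4.27 in siNeg and 4.79 and 4.46 in Control. The siMPS1 arrays were below the siNeg arrays at 24 h and above them at 48 h, and overlapped with Control at 24 h.

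Against siNeg, CDK6 fell by 0.89 at 24 h (SE 0.23, adjusted p = 0.0189), and it rose by 0.68 at 48 h, with an adjusted p of 0.0345. At 6 h the difference was -0.11 (adjusted p = 0.825). The change between 24 and 48 h was 1.57 (SE 0.33, adjusted p = 0.00311) and held without any single array. Against Control the differences were -0.05, -0.30 and 0.34, with adjusted p of 0.898, 0.459 and 0.311. The siNeg level itself stood 0.59 above Control at 24 h (adjusted p = 0.228) and at -0.34 at 48 h (adjusted p = 0.381). Neither siNeg difference from Control was called, and the part of the siNeg reference in the change of 1.57 was not tested. Both calls against siNeg were lost with only the compared groups, and the 48 h call also without the filter. The 24 h call was lost without either siNeg array or siMPS1 replicate 1 (-0.91 to -0.67, adjusted p from 0.0944 to 0.13), and the 48 h call without any one of the 4 arrays compared (0.67 to 0.69, adjusted p from 0.103 to 0.116).

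CCNE1, cyclin E1, binds CDK2 late in G1. At 6 h it read 5.55 and 5.42 in siMPS1, 5.60 and 5.73 in siNeg and 5.56 and 5.76 in Control. After 24 h it read 5.23 and 5.49 in siMPS1, 5.88 and 5.93 in siNeg and 5.43 and 5.39 in Control. The 48 h values were 5.39 and 5.62 in siMPS1, 6.13 and 6.25 in siNeg and 5.99 and 5.93 in Control. The siMPS1 arrays lay below the siNeg arrays at all 3 times, below the Control arrays at 6 and 48 h, and around them at 24 h.

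Against siNeg, CCNE1 fell by 0.54 at 24 h (SE 0.15, adjusted p = 0.0218). It fell by 0.69 at 48 h, to 62.1% of the siNeg level, with an adjusted p of 0.00161. At 6 h the difference was -0.18 (adjusted p = 0.505). The 48 h fall was called in every alternative fit and without any single array. The 24 h fall was lost without either siNeg array or siMPS1 replicate 1 (-0.57 to -0.41, adjusted p from 0.0979 to 0.142). Against Control it fell by 0.46 at 48 h (adjusted p = 0.0261), with -0.17 and -0.05 at 6 and 24 h (adjusted p of 0.438 and 0.88). That last call was lost without either Control array or siMPS1 replicate 1 (-0.49 to -0.34, adjusted p from 0.0758 to 0.197). At 24 h siNeg was at 0.50 against Control and was not called (adjusted p = 0.0933). Both siNeg arrays lay above the Control arrays there, and the part of this in the 24 h fall was not tested.

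CCNE2, cyclin E2, gave the largest change of the 7 genes against siNeg at 6 and 48 h by the main probe sets. At 6 h probe set 205034_at read 6.13 and 6.25 in siMPS1, 7.12 and 7.21 in siNeg and 7.27 and 7.21 in Control. At 24 h it read 6.06 and 5.59 in siMPS1, 6.53 and 6.62 in siNeg and 6.53 and 6.41 in Control. After 48 h it read 5.91 and 5.73 in siMPS1, 7.03 and 7.17 in siNeg and 7.29 and 7.04 in Control. The siMPS1 groups took the 3 lowest places of the 9, and the 24 and 48 h siMPS1 groups overlapped. The siNeg and Control groups overlapped at 6 and 48 h, and all lay above every siMPS1 array.

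Against siNeg, the log2 fold changes of CCNE2 were -0.97, -0.75 and -1.28 at 6, 24 and 48 h (SE 0.14 each), with adjusted p of 0.000629, 0.00145 and 1.64e-06. The siMPS1 level was 50.9%, 59.3% and 41.1% of that in siNeg, with the pseudocount included. All of these calls held in every alternative fit and without any single array. Against Control they were -1.05, -0.65 and -1.35, with adjusted p of 0.00015, 0.00438 and 1.44e-06. The 24 h value against Control lost its call without siMPS1 replicate 2, at -0.41 (adjusted p = 0.0787), and with probe sets averaged, at -0.42 (adjusted p = 0.0751). The differences between siNeg and Control were -0.07, 0.11 and -0.06, with adjusted p of 0.827, 0.796 and 0.817. By this probe set the response of CCNE2 changed by -0.53 from 24 to 48 h and did not pass the test (adjusted p = 0.0711), but without siMPS1 24 h replicate 2 the change was -0.76 and was called (adjusted p = 0.00884).

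The dimmer CCNE2 probe set, 211814_s_at, lay above the array median on 13 of 18 arrays. At 48 h it read 4.41 and 3.99 in siMPS1, 5.59 and 5.79 in siNeg and 5.82 and 5.70 in Control, with no overlap. Its log2 fold change at 48 h was -1.49 against siNeg (adjusted p = 0.000101) and -1.56 against Control (adjusted p = 8.92e-05). At 6 and 24 h its siMPS1 values were also the lowest means, at -0.37 (adjusted p = 0.399) and -0.25 (adjusted p = 0.61) against siNeg, and neither passed the test. By this probe set the change of the response was called, at -1.23 from 24 to 48 h and at -1.11 from 6 to 48 h, with adjusted p of 0.0152 and 0.0237.

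**Figure D3:**
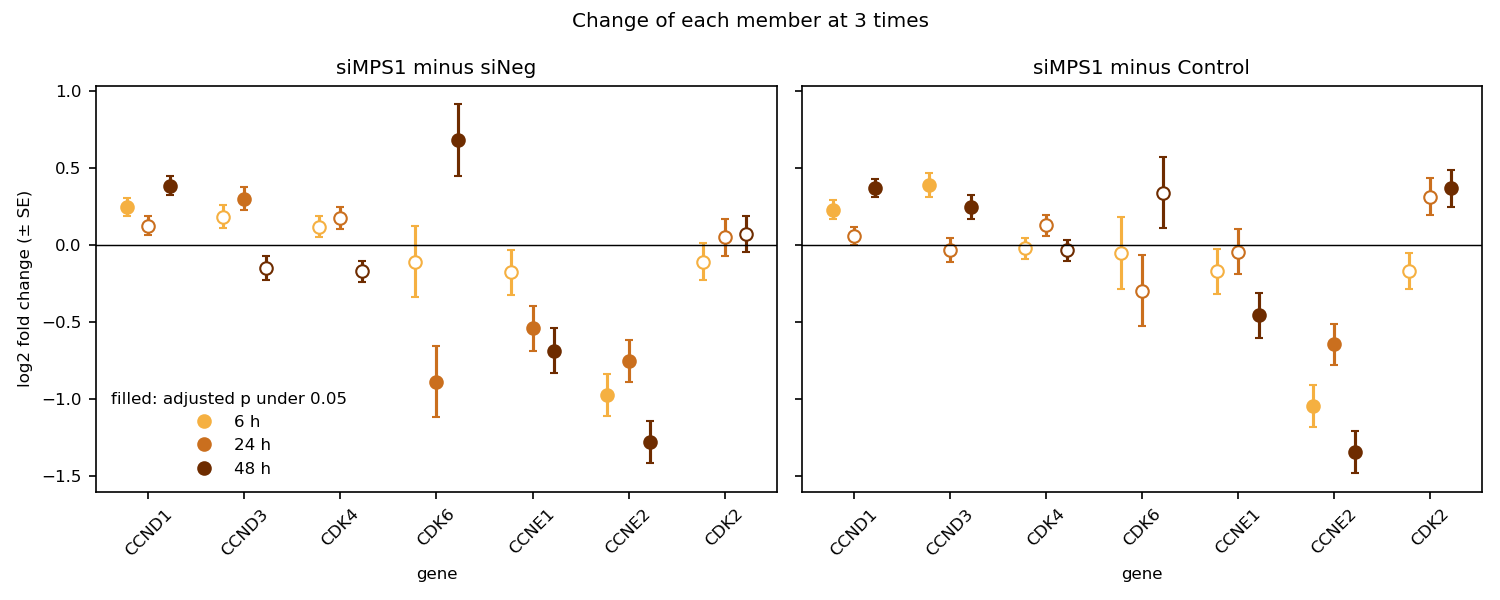
Log2 fold change with its SE for siMPS1 minus siNeg and siMPS1 minus Control at 6, 24 and 48 h, by gene (filled points, adjusted p under 0.05 in limma over 7828 genes). CCNE2 is filled at all 3 times in both panels, from -0.65 to -1.35, and CDK6 against siNeg lies at -0.89 at 24 h and 0.68 at 48 h.

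CDK2, the partner of the E cyclins, gave unlike answers by its probe sets at 48 h. The main one, 204252_at, read 7.38 and 7.53 in siMPS1, 7.58 and 7.55 in siNeg and 7.58 and 7.66 in Control at 6 h. The 24 h values were 7.92 and 7.67 in siMPS1, 7.69 and 7.80 in siNeg and 7.28 and 7.68 in Control. The 48 h values were 7.96 and 7.99 in siMPS1, 8.03 and 7.78 in siNeg and 7.55 and 7.67 in Control. The siMPS1 and siNeg arrays overlapped at 24 and 48 h. The differences from siNeg were -0.11, 0.05 and 0.07, with 95% intervals of -0.36 to 0.14, -0.20 to 0.30 and -0.18 to 0.32 and adjusted p of 0.634, 0.856 and 0.71. Against Control it rose by 0.37 at 48 h (adjusted p = 0.0286), a call lost without any one of the 4 arrays compared (0.30 to 0.43, adjusted p from 0.0551 to 0.17).

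The second CDK2 probe set, 211804_s_at, lay above the array median on all 18 arrays. At 6 h it read 6.23 and 6.07 in siMPS1, 6.22 and 6.32 in siNeg and 6.25 and 6.24 in Control. After 24 h it read 6.67 and 6.68 in siMPS1, 6.61 and 6.39 in siNeg and 6.49 and 6.34 in Control. After 48 h it read 5.58 and 6.21 in siMPS1, 7.02 and 7.17 in siNeg and 6.82 and 6.79 in Control. It was lower in siMPS1 at 48 h by a log2 difference of -1.20 against siNeg (SE 0.15, adjusted p = 4.16e-05) and -0.91 against Control (adjusted p = 0.000717). At 6 and 24 h the differences from siNeg were -0.12 (adjusted p = 0.779) and 0.17 (adjusted p = 0.646). With the probe sets of each gene averaged, CDK2 was lower at 48 h, at -0.56 against siNeg and -0.27 against Control. One more probe set, 211803_at, lay above the array median on 0 arrays and was not kept by the filter.

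The gap between the 2 brighter CDK2 probe sets in their change against siNeg was 0.01 at 6 h, 0.13 at 24 h and 1.27 at 48 h. Among 2678 genes with at least 2 probe sets above the filter, the median gap was 0.28, 0.25 and 0.38, and a gap over 1 was seen in 3.44%, 2.28% and 8.36% of genes at the 3 times. The siMPS1 arrays of 48 h had the 3′ over 5′ ratios of 0.87 and 0.92 for ACTB given above, whose part in these gaps was not tested. The CCNE2 gap was 0.60, 0.50 and 0.20, and that of CCND1 was 0.31, 0.10 and 0.19. The array annotation gives the main CDK2 probe set another source record than 211804_s_at, and their places in the transcript were not analysed here. Of the 11 probe sets of the 7 genes, 5 were called at 48 h against siNeg, when 16% of all probe sets were.

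**Figure D4:**
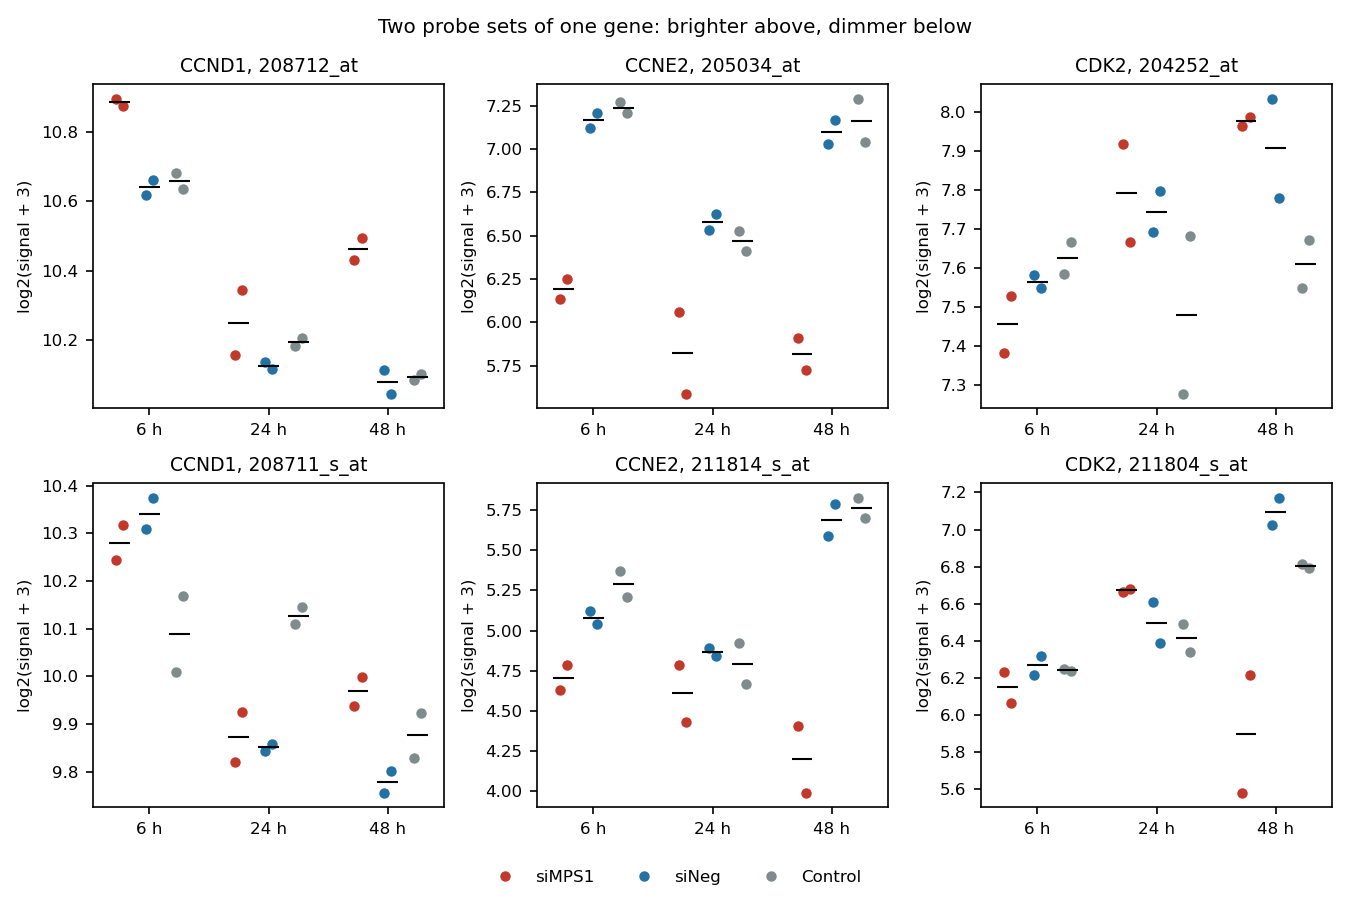
Log2 signal of 2 probe sets each of CCND1, CCNE2 and CDK2 on every array (points, arrays; bars, means of 2; axes do not start at 0). At 48 h both CCNE2 probe sets are lower in siMPS1, and of the CDK2 probe sets 211804_s_at, at 5.58 and 6.21, is lower while 204252_at, at 7.96 and 7.99, is not.

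Against Control, 3 of the 7 genes were called at 6 h (CCND1 and CCND3 higher, CCNE2 lower), when 16.6% of all genes were. With median centring 3 were called as well, but 0 higher and 3 lower: CCND1 and CCND3 were at 0.03 and 0.19 and not called, and CDK2 at -0.36 (adjusted p = 0.0287) and CDK4 at -0.22 (adjusted p = 0.0245) were called beside CCNE2. At 24 h CCNE2 alone was called, against 12.7% of all genes. At 48 h 5 were called (CCND1, CCND3 and CDK2 higher, CCNE1 and CCNE2 lower), against 27.5%. CDK2 was higher by its main probe set, while its probe set 211804_s_at was called lower in the fit over all probe sets. These comparisons share the siMPS1 arrays with those against siNeg, so the values stand side by side and do not count as separate evidence. Averaged over the 3 times, CCND1 rose by 0.25 against siNeg by its main probe set (SE 0.04, limma adjusted p = 5.29e-05). CCNE1 fell by 0.47 (adjusted p = 0.000502) and CCNE2 fell to 49.9% of siNeg (adjusted p = 5.9e-08), when 24.8% of all genes were called. Without 48 h, in an average added after seeing the data, these 3 kept their calls at 0.18, -0.36 and -0.86, and CCND3 at 0.24 (adjusted p = 0.00675) and CDK6 at -0.50 (adjusted p = 0.0494) were called as well.

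The members also moved with time in culture. Between 6 and 24 h CCND1 fell in all treatments by its main probe set, by 0.63 in siMPS1, 0.51 in siNeg and 0.46 in Control. The adjusted p in limma were 1.33e-07, 1.92e-06 and 6.97e-06. Its other probe set, 208711_s_at, was called lower in siMPS1 and siNeg but not in Control. The Control means of 208711_s_at were 10.09 at 6 h and 10.13 at 24 h. CCNE2 fell over the same interval, with differences of -0.37 in siMPS1, -0.59 in siNeg and -0.77 in Control and adjusted p of 0.0325, 0.00175 and 0.000169. CCND3 fell by 0.46 in siMPS1 and fell by 0.58 in siNeg, with adjusted p of 7.7e-05 and 7.03e-06, and was at -0.04 in Control (adjusted p = 0.703). CDK6 fell by 1.15 in siMPS1 (adjusted p = 0.000512) and fell by 0.90 in Control (adjusted p = 0.0042), and was at -0.37 in siNeg (adjusted p = 0.217). The Control value of CDK6 lost its call without Control 24 h replicate 2, at -0.64 (adjusted p = 0.0771). CDK4 rose by 0.29 in siMPS1 (adjusted p = 0.00218) and rose by 0.23 in siNeg (adjusted p = 0.0111), and was at 0.14 in Control (adjusted p = 0.117). CDK2 rose by 0.34 in siMPS1 (adjusted p = 0.0262), with 0.18 in siNeg (adjusted p = 0.237) and -0.15 in Control (adjusted p = 0.346). The siNeg call of CDK4 was lost without siNeg 24 h replicate 2 or 6 h replicate 1 (0.17 to 0.23), and the CDK2 call without siMPS1 24 h replicate 1 or 6 h replicate 1 (0.21 to 0.26). Over this interval 6 of the 7 genes were called in siMPS1, 4 in siNeg and 3 in Control, against 47.4%, 44.3% and 43.1% of all genes. The siMPS1 call of CCNE2 was lost without siMPS1 24 h replicate 2 or either 6 h array (-0.43 to -0.14).

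Between 24 and 48 h CCNE2 rose again in siNeg, by 0.52 (adjusted p = 0.00742), and in Control, by 0.69 (adjusted p = 0.00169), while in siMPS1 the 95% interval of the difference ran from -0.29 to 0.28 (adjusted p = 0.985). The siNeg call was lost without siNeg 24 h replicate 1 or 48 h replicate 2 (0.45 to 0.48, adjusted p from 0.0604 to 0.0611). CDK4 rose in every treatment, by 0.22 in siMPS1 (adjusted p = 0.0308), 0.56 in siNeg (adjusted p = 1.02e-05) and 0.38 in Control (adjusted p = 0.00102). The siMPS1 value was lost as a call without siMPS1 24 h replicate 1 or 2 or 48 h replicate 2 (0.11 to 0.23). CCND1 rose by 0.21 in siMPS1 (adjusted p = 0.0166), with -0.05 in siNeg (adjusted p = 0.614) and -0.10 in Control (adjusted p = 0.264), and the siMPS1 call was lost without siMPS1 24 h replicate 1 or 48 h replicate 2 (0.12 to 0.18). CDK6 rose by 0.93 in siMPS1 (adjusted p = 0.00715) and fell by 0.64 in siNeg (adjusted p = 0.046), and was at 0.29 in Control (adjusted p = 0.407). These CDK6 calls were lost without siMPS1 24 h replicate 1 (0.71) and without any one of 10 arrays (-0.66 to -0.62). CCNE1 rose by 0.55 in Control (adjusted p = 0.0125), and was at 0.14 in siMPS1 (adjusted p = 0.523) and 0.29 in siNeg (adjusted p = 0.156). The Control call of CCNE1 was lost without Control 24 h replicate 2 or 48 h replicate 1 (0.52 to 0.53). CCND3 rose by 0.41 in siMPS1 (adjusted p = 0.000839) and rose by 0.86 in siNeg (adjusted p = 2.48e-07), and was at 0.13 in Control (adjusted p = 0.244). Called genes among the 7 numbered 4 in siMPS1, 4 in siNeg and 3 in Control, against 24.4%, 29.2% and 19.6% of all genes. Dimmer probe sets had calls of their own in the fit over all probe sets. For CDK2, 211804_s_at fell from 6.67 to 5.90 in siMPS1 and rose from 6.50 to 7.10 in siNeg. For CCND1, 208711_s_at fell in Control, from 10.13 to 9.88. For CCNE2, 211814_s_at rose in siNeg and Control.

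Other genes of the G1 to S passage were counted from lists. Of all genes, 5.14% were called higher and 5.81% lower in siMPS1 than in siNeg at 24 h, and 15.7% and 13.5% at 48 h. Among 5 measured CDK inhibitors, 0 were called at 24 h against siNeg in limma, and at 48 h CDKN1A (p21), which inhibits CDK2 complexes and is a p53 target, rose by 1.47 (adjusted p = 7.14e-07), while CDKN3, a phosphatase that acts on CDK2, fell by 0.66 (adjusted p = 3.94e-05). CDKN1B (p27) was at 0.07 at 48 h (adjusted p = 0.624). Against Control 2 of the 5 were called higher at 24 h, when 5.48% of all genes were. These were CDKN1B at 0.30 (adjusted p = 0.045) and CDKN3 at 0.31 (adjusted p = 0.0386). CDKN1A rose by 1.06 against Control at 48 h (adjusted p = 3.66e-05). At the same time the ACTB 3′ over 5′ ratios of the siMPS1 arrays were 0.87 and 0.92, and their part in these and the following 48 h counts was not tested.

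Of 11 measured RB, E2F and DP genes, 2 were called higher at 24 h and 1 higher and 3 lower at 48 h against siNeg. E2F3, an activating E2F, rose by 0.44 at 24 h (adjusted p = 0.00766) and by 0.56 at 48 h (adjusted p = 0.000323), the 24 h call being lost without siNeg replicate 2 or siMPS1 replicate 1 (0.34 to 0.42). TFDP1, the DP partner of E2F factors, rose by 0.23 at 24 h (adjusted p = 0.0187) and fell by 0.30 at 48 h (adjusted p = 0.000805), and its 24 h call was lost without either siNeg array or siMPS1 replicate 2 (0.21 to 0.24) and with probe sets averaged. E2F5, a repressing E2F, fell by 1.27 at 48 h (adjusted p = 0.000459).

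Of 21 measured E2F target genes of S-phase entry, 9 were higher and 0 lower at 24 h against siNeg, with a median log2 fold change of 0.29. At 48 h 0 were higher and 8 lower, with a median of -0.19. MCM6 and MCM3, subunits of the replicative helicase, rose by 0.82 (adjusted p = 3.34e-05) and 0.55 (adjusted p = 0.000483) at 24 h and were at -0.24 (adjusted p = 0.0832) and -0.09 (adjusted p = 0.474) at 48 h. TYMS, thymidylate synthase, rose by 0.34 at 24 h (adjusted p = 0.00125) and fell by 0.45 at 48 h (adjusted p = 1.63e-05). PCNA, the sliding clamp, was at 0.08 at 24 h (adjusted p = 0.539) and fell by 0.51 at 48 h (adjusted p = 3.65e-05). CCNE1 and CCNE2, textbook E2F targets as well, were lower against siNeg at 24 h, when the 9 genes were higher. Against Control CCNE2 was lower at 24 h and CCNE1 was at -0.05 (adjusted p = 0.88). Against Control, 7 of the 21 were higher and 0 lower at 24 h, and 4 were higher and 4 lower at 48 h, and between siNeg and Control 7 were higher and 0 lower at 48 h. Of all genes, 5.48% were called higher and 7.19% lower than Control at 24 h in siMPS1 and 15.3% and 12.2% at 48 h, and 6.82% and 6.11% in siNeg at 48 h.

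**Figure D5:**
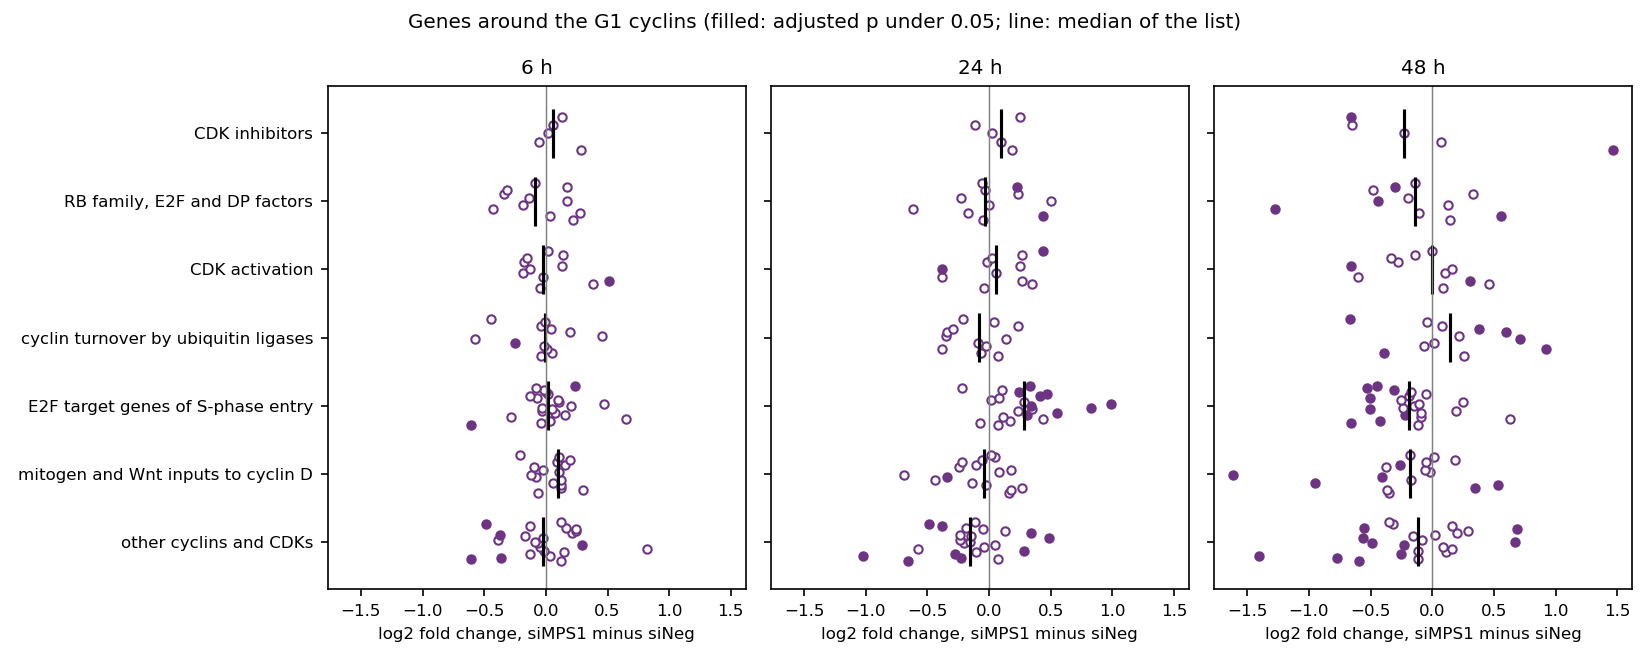
Log2 fold change of siMPS1 minus siNeg for the measured genes of each list at 6, 24 and 48 h (points, genes, filled at an adjusted p under 0.05; vertical lines, medians of the list). The E2F target genes have a median of 0.29 at 24 h and of -0.19 at 48 h.

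Of 11 measured genes of CDK activation, 1 was higher and 1 lower at 24 h and likewise at 48 h against siNeg. CDK7, the kinase that activates CDK2 and CDK4, fell by 0.38 at 24 h (adjusted p = 0.00333) and was at 0.07 against Control (adjusted p = 0.634). WEE1, which inhibits CDK1 and CDK2, rose by 0.43 at 24 h (adjusted p = 0.029), a call lost without siNeg replicate 2 or either siMPS1 array (0.26 to 0.47), and was at 0.17 against Control (adjusted p = 0.419). Of 12 measured genes of cyclin turnover, 0 were called at 24 h, and 4 were higher and 2 lower at 48 h. SKP2 and CKS1B, which target p27 for destruction, fell at 48 h, at -0.67 (adjusted p = 0.00117) and -0.39 (adjusted p = 9.92e-05). Against Control SKP2 was at -0.33 (adjusted p = 0.0841) and CKS1B was called at -0.27 (adjusted p = 0.00312). CUL4A, a cullin, rose by 0.71 at 48 h (adjusted p = 0.00978), a call lost without siNeg or siMPS1 replicate 1 (0.44 to 0.57), and was at 0.29 against Control (adjusted p = 0.3). CRYAB, an adaptor in cyclin D1 destruction, rose by 0.92 (adjusted p = 0.000621), with -0.02 against Control (adjusted p = 0.957). GSK3B and FBXW7 were also called higher than siNeg at 48 h in limma, at 0.38 (adjusted p = 0.0266) and 0.60 (adjusted p = 0.026). Against Control at 48 h GSK3B was called at 0.37 (adjusted p = 0.0321) and FBXW7 was at 0.49 (adjusted p = 0.0711).

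Of 16 measured genes of mitogen and Wnt input to cyclin D, 0 were higher and 1 lower at 24 h, and 2 were higher and 4 lower at 48 h against siNeg. EGFR, the EGF receptor, rose by 0.53 at 48 h (adjusted p = 6.43e-05), but with probe sets averaged it was at 0.07 (adjusted p = 0.642). EGR1, an immediate early factor, fell by 0.96 (adjusted p = 1.75e-05) against siNeg and was at 0.28 against Control (adjusted p = 0.11). MYC fell by 0.26 (adjusted p = 0.00615), lost without siMPS1 replicate 1 at -0.22 (adjusted p = 0.0662). ETS2, a factor downstream of RAS, fell by 0.34 at 24 h (adjusted p = 0.00407). It fell by 0.41 at 48 h (adjusted p = 0.000252), a value of -0.13 with probe sets averaged. Of 23 other measured cyclins and CDKs, 3 were higher and 6 lower at 24 h and 2 higher and 8 lower at 48 h. CCNB2, a mitotic cyclin, fell by 1.02 at 24 h (adjusted p = 1.62e-07) and fell by 1.41 at 48 h (adjusted p = 1.09e-09), and CDK1, the mitotic kinase, rose by 0.49 at 24 h (adjusted p = 0.00125) and fell by 0.56 at 48 h (adjusted p = 8.15e-05). Against Control CDK1 was at 0.19 at 24 h (adjusted p = 0.162) and fell by 0.53 at 48 h (adjusted p = 0.000206).

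The genes most like each member in log2 signal over the 18 arrays were taken by Pearson correlation among 7821 other genes. They share arrays and time points, and the correlations are descriptions. CCND1 was most like GPC1 (r = 0.982), SFPQ (0.972) and TNFAIP1 (0.962), and CDK4 most like SNRPD3 (0.964), MRPL40 (0.963) and NDUFAF3 (0.961). CCND3 was most like THY1 (0.925), PCBP2 (0.917) and MYH9 (0.917), and CCNE2 most like ULK2 (0.932), STK17A (0.919) and ABCE1 (0.919). The nearest genes were less close for CCNE1, with SYBU (0.841), PCCB (0.810) and CRTAP (0.809), for CDK2, with PARP1 (0.829), MDC1 (0.816) and THG1L (0.811), and for CDK6, with RWDD1 (0.857), DUSP4 (0.846) and LRRC8D (0.834). Among the members, CCND1 and CDK6 were the most alike pair (r = 0.714), and CCND1 and CDK4 the most opposed (r = -0.638), over 18 arrays.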

How the data were processed

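The series matrix of 18 Affymetrix arrays (U251 cells, 250 ng of total RNA labelled with biotin, per the labels) was used. The deposited values are log2 signals, made by the authors with MAS5, per the submitters' processing notes. Base 2 was read off the values: 2 raised to them gave a 2% trimmed mean from 100.122 to 100.134 on every array. Signals were returned to the linear scale, 3 was added and log2 taken, without further normalization, so folds of dim genes are understated. Of 22277 probe sets, 19064 named 1 gene. The lowest 40% by mean were left out and the highest probe set per gene kept. Group means were fitted with limma 3.58.1 in R 4.3.3, with an intensity trend, 9 residual degrees of freedom, two-sided tests and Benjamini-Hochberg adjustment within each contrast over 7828 genes. A second fit used all 19064 probe sets. The procedure was tested on simulated data.

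The genes, the lists and the named genes were chosen with earlier results of these data known. Named were the 7 genes with every probe set, TTK, genes (not all) among the 4 smallest p of each list at 24 and at 48 h, and the 3 most alike genes per member. Alternatives were pseudocounts 1 and 11, quantile normalization, median centring, no filter, the lowest 60% out, averaged probe sets, no trend, only the compared groups, a replicate block and leaving out each array. Promoters were searched in Python 3.11.15 on both strands. Only 2 arrays per group limit the precision. Of other cell types, EPCAM, CDH1, PTPRC, SYP and NEFM lay above the array median on no array, and KRT8, KRT18, CLDN4, TUBB3, NEFL and SYT1 on all 18. Median centring moved the median log2 fold change of all genes by over 0.1 in 5 contrasts: the 6 h contrasts of siMPS1 and siNeg with Control, siMPS1 from 6 to 24 h (to 0.11, against 0.01), Control from 6 to 24 h (to -0.04, against 0.12) and Control from 24 to 48 h (to 0.09, against -0.05).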

Additional observations from a re-analysis of the deposited data

Results flagged for a closer look

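The response to the MPS1 siRNA, as siMPS1 minus siNeg, changed between times by a test of the change itself. From 24 to 48 h it changed by 0.26 for CCND1 (adjusted p = 0.0489), -0.45 for CCND3 (adjusted p = 0.00868), -0.35 for CDK4 (adjusted p = 0.0223) and 1.57 for CDK6 (adjusted p = 0.00311), when 15.8% of all genes were called. The CCND1 change was lost without any one of 17 arrays (0.16 to 0.29), and that of CCND3 without siNeg 24 h replicate 1, at -0.37 (adjusted p = 0.0538). From 6 to 48 h it changed by -0.33 for CCND3 (adjusted p = 0.0377) and by -0.29 for CDK4 (adjusted p = 0.044), when 20.2% were called. The CCND3 change from 6 to 48 h was lost without any one of 5 arrays (-0.35 to -0.27). From 6 to 24 h 0 of the 7 genes and 3.69% of all genes were called in limma. Against Control at 24 and 48 h, siMPS1 was at 0.06 and 0.37 for CCND1 and at -0.04 and 0.25 for CCND3. For CDK4 it was at 0.13 and -0.04, and for CDK6 at -0.30 and 0.34. The siNeg values against Control were -0.07 and -0.01 for CCND1 and -0.34 and 0.40 for CCND3. For CDK4 they were -0.05 and 0.14, and for CDK6 0.59 and -0.34. Of these siNeg values, those of CCND3 alone were called. The part of the siNeg reference in the changes of response was not tested.

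Among other probe sets, 211804_s_at of CDK2 changed by -1.37 from 24 to 48 h (adjusted p = 0.000783) and by -1.08 from 6 to 48 h (adjusted p = 0.00416), and 211814_s_at of CCNE2 by -1.23 (adjusted p = 0.0152) and -1.11 (adjusted p = 0.0237). TTK changed by -0.87 from 6 to 48 h (adjusted p = 0.0421).

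Of the named pathway genes, the response moved up from 24 to 48 h by 1.28 for CDKN1A, 0.54 for CDK7, 1.30 for CRYAB and 0.56 for EGFR. It moved by -0.91 for CDKN3, -0.53 for TFDP1, -0.32 for CKS1B, -1.06 for MCM6, -0.65 for MCM3, -0.79 for TYMS, -0.52 for RRM1, -0.59 for PCNA, -0.86 for MCM5, -0.81 for EGR1, -1.04 for CDK1, -0.55 for CCNB1 and -0.38 for CCNB2. Against Control, siMPS1 moved the other way from 24 to 48 h for CDK7, from 0.07 to -0.03, and for EGR1, from -0.25 to 0.28. For the other genes named here it moved the same way as against siNeg. The siMPS1 arrays of 48 h, on which all changes to 48 h rest, had ACTB 3′ over 5′ log2 ratios of 0.87 and 0.92. In siNeg these ratios were 0.10 and 0.14, and the part of this was not tested.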

How the results depend on the processing

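Counts of called members that moved by over 1.5 times were as follows. With quantile normalization they were 1 for siMPS1 minus siNeg at 6 h, 0 for siNeg minus Control at 24 h and 5 for Control from 6 to 24 h. With median centring they were 2 and 3 for siMPS1 minus Control at 24 and 48 h, 2 and 0 for siNeg minus Control at 6 and 24 h, 0 for the change of response from 6 to 48 h and 6 for Control from 6 to 24 h. Without the filter siNeg minus Control at 24 h gave 0. With averaged probe sets siMPS1 minus siNeg at 6 h gave 1, siMPS1 minus Control at 24 h 0 and siNeg minus Control at 48 h 2, and CDK2 turned to -0.56 against siNeg and -0.27 against Control at 48 h and to -0.19 in the average. Without an intensity trend siMPS1 minus siNeg at 6 h gave 1, siNeg minus Control at 24 h 0, the change of response from 24 to 48 h 2, that from 6 to 48 h 1 and siMPS1 from 24 to 48 h 2. With only the compared groups siMPS1 minus siNeg at 24 h gave 1, siMPS1 minus Control at 48 h 3 and siNeg minus Control at 24 h 0. The average without 48 h gave 5. Smaller moves included siMPS1 minus siNeg at 48 h, with 5 under median centring or averaged probe sets and 3 without the filter, with the lowest 60% left out or with only the compared groups, against 4. They also included siMPS1 from 6 to 24 h, with 5 under quantile normalization, median centring or no trend, against 6, and siNeg from 24 to 48 h, with 3 under quantile normalization or median centring, against 4. The cause was not tested.

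Leaving out each array gave 1 to 2 called members for siMPS1 minus siNeg at 6 h, 1 to 4 at 24 h, 3 to 4 at 48 h and 3 to 4 in the average. For siMPS1 minus Control it gave 2 to 3, 0 to 2 and 2 to 5, and for siNeg minus Control 0 to 0, 0 to 1 and 1 to 1. The change of response gave 0 to 0 from 6 to 24 h, 1 to 4 from 24 to 48 h and 0 to 2 from 6 to 48 h. Courses from 6 to 24 h gave 4 to 6 in siMPS1, 3 to 4 in siNeg and 3 to 3 in Control, and from 24 to 48 h 1 to 4, 2 to 4 and 2 to 3. Probe sets gave 5 to 6. Deviations of arrays with the same replicate number were weakly correlated across genes (from -0.136 to 0.103 over 36 group pairs). Whether arrays of one number share a day or a culture is not in the labels. With the replicate block the calls over all comparisons numbered 59, against 59 without it, but not the same ones: the change of the CCND1 response from 24 to 48 h lost its call (adjusted p = 0.0518) and 208711_s_at at 48 h gained one (adjusted p = 0.0229). SKP2 at 6 h also gained a call with the block (adjusted p = 0.049). Dim CDK6 and 211814_s_at signals limit what could be seen.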
